A study of Mus musculus with 40 samples.

Results

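The 10 genes described here act at the lipid droplet of brown fat: the lipases Pnpla2, Lipe and Mgll, the lipase cofactor Abhd5, the lipase inhibitor G0s2, the droplet proteins Plin1, Plin2, Plin5 and Cidec, and the triglyceride synthesis enzyme Dgat2. They were taken by name from the deposited counts of 52636 genes, not by a cut on a measured value. The list was chosen with earlier results of these data known. All 10 passed the filter on low counts. Brown adipose tissue came from 40 male C57BL/6 mice, 5 in each of 8 groups, and was read as bulk RNA. Control mice received a single intraperitoneal dose of 40 mg/kg of an isotype antibody against ragweed. The other mice, called Jag antibody mice, had antibodies that block the Notch ligands Jag1 and Jag2, each at 20 mg/kg. Tissue was collected 15 h, 5 d or 7 d later. At 7 d, 1 further group under each antibody had also been given thyroid hormone daily, starting on day 2 (T4 at 1 ug/g and T3 at 0.05 ug/g of body weight). The labels give the age as 10 to 12 weeks in one place and 10 to 14 weeks in another, and the antibodies were given to the whole animal. The series title concerns Notch signalling in the thyroid of adult animals, so the groups with hormone bear on what ligand blockade changes when thyroid hormone is supplied.

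Brown adipocytes hold triglyceride in many small droplets and burn the fatty acids released from it to make heat. Release runs in steps. Pnpla2 (also called ATGL) removes the first fatty acid from triglyceride, Lipe (hormone-sensitive lipase) the next from diglyceride, and Mgll (monoglyceride lipase) the last. Abhd5 (also called CGI-58) activates Pnpla2, and G0s2 binds and inhibits it. Plin1 coats the droplet and holds Abhd5 until adrenergic signalling frees it, Plin2 coats droplets in most tissues, and Plin5 links droplets to mitochondria in tissues that oxidise fat. Cidec passes lipid between droplets so that they enlarge, and Dgat2 makes the final ester bond of triglyceride.

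Promoter sequences are shown for some of the members whose transcripts fell with thyroid hormone. The half-site AGGTCA was searched because the thyroid hormone receptor binds DNA through copies of it, as do many other nuclear receptors. Binding was not measured in this series. The RefSeq promoter table on GRCm38.p6 held 13 windows for 9 of the 10 genes, all but Dgat2, each with 250 bases before the start and 50 after it. The half-site, on either strand, was present in 4 of the 13 windows, which belong to Abhd5, Plin2 and Plin5, against 16.3% of the 32817 promoters in the table. Mgll, G0s2 and Cidec also fell with hormone and had no half-site in their windows. Stretches of 30 bases are printed only for Abhd5, Plin2 and Plin5, where a match was found. Capitals mark the half-site, the letters are written on the strand of the gene, and all stretches lie outside annotated exons.
Abhd5: gcggcgtcgggcTGACCTtccttaccagtg
Plin2: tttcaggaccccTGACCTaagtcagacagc
Plin5: agtcctagtctgAGGTCAgccatggtgact
The Abhd5 stretch is chr9:122351535-122351564 on the plus strand and its half-site, read on the opposite strand, begins 69 bases before the start. The Plin2 stretch is chr4:86670260-86670289 on the minus strand, with the half-site on the opposite strand from 218 bases before the start. The Plin5 stretch is chr17:56117701-56117730 on the minus strand, with the half-site on the same strand from 170 bases before the start.

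Cidec, which had the lowest adjusted p of the members with hormone, is shown for contrast. The 250 bases before its start, chr6:113435761-113436010 on the minus strand, overlap no annotated exon and hold none of the motifs searched. Overlap of the printed promoter sequences with introns of other genes was not checked.
Cidec: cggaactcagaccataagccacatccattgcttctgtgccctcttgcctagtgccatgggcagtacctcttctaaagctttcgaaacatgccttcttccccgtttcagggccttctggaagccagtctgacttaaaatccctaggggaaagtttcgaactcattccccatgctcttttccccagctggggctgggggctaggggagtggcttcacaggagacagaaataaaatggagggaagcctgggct
A direct repeat of the half-site with 1 base between its copies was in none of the members' windows and in 0.0396% of all. Repeats with any other spacing were not searched, so their presence or absence is not known here. The E-box CACGTG was in 3 of the 13 windows, in Lipe, Mgll and Plin2, against 7.15% of all, and CCAAT was in 2, in Plin2 and Plin5, against 37.4%. TATAAA (13.6% of all promoters), TGACGTCA (1.79%), TCACNCCAC (1.24%) and TTGCGCAA (0.183%) were in none. All motifs were searched on both strands, and a match describes letters only.

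The 40 libraries held 12217623 to 36511893 counts in genes. The tissue label was checked against marker lists, each summed per mouse in log2 CPM (counts over the TMM-scaled library total, as log2). The 6 adipocyte markers summed to 13.2 to 15.5 and none was at 0 in any mouse, and the 6 brown adipocyte markers, Ucp1 among them, were likewise present in all mice. Some libraries stood apart. At 15 h, control mice 2 and 3 had myeloid sums of 12.6 and 11.6 against 8.22 to 9.62 in the other 3 control mice, with the lowest adipocyte sums of their group. At 7 d, mouse 6 of the Jag antibody group had a skeletal muscle sum of 15.6, the highest of its group. At 5 d the muscle sum was 9.99 to 17.4 in control mice and -0.17 to 5.46 in Jag antibody mice, where up to 4 of the 8 muscle markers were at 0. In bulk tissue, fewer cells of a type and less RNA per cell cannot be told apart.

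Scaled to exonic length, so that genes can be compared with each other, the members spanned a wide range. In control mice at 7 d, Pnpla2 had 1154 ± 388.5 CPM per kb (SD, n = 5) and G0s2 1125 ± 609 CPM per kb. Cidec (721 ± 240.1), Dgat2 (679.7 ± 242) and Plin2 (598 ± 166) followed in CPM per kb. Plin1, Mgll, Lipe and Plin5 lay between 147 and 218 CPM per kb, and Abhd5 was lowest at 33.6 ± 5.66. Pnpla2 had the highest mean in 7 of the 8 groups, and Cidec had it in Jag antibody mice at 15 h. Abhd5 had the lowest mean in all 8 groups. Between groups the rank of G0s2 moved most, from rank 2 in control mice at 7 d to rank 7 in control mice at 7 d with hormone.

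**Figure D1:**
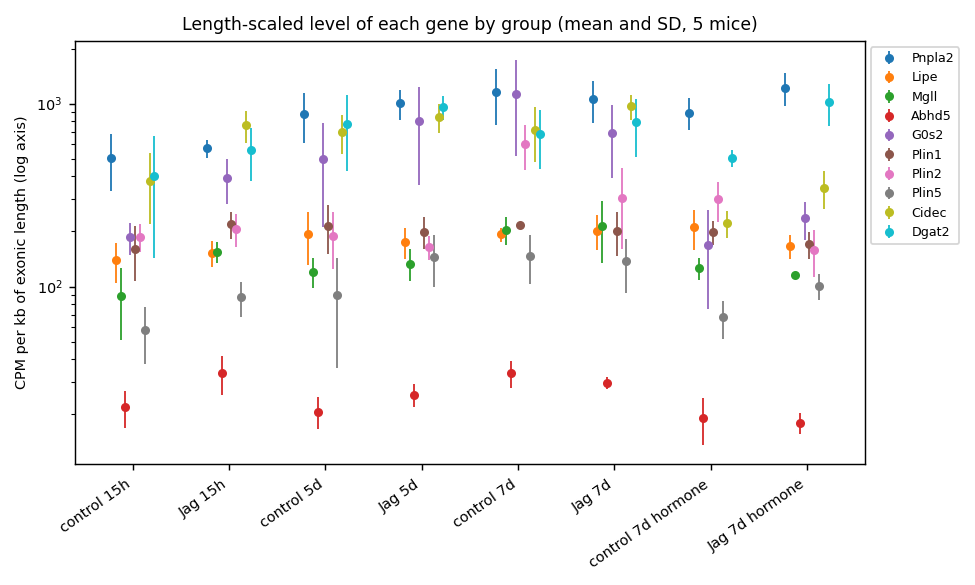
Mean CPM per kb of exonic length (log axis) of each of the 10 genes in each of the 8 groups, with SD over 5 mice. Abhd5 lies lowest in every group, and in control mice at 7 d it is at 33.6 CPM per kb while Pnpla2 is at 1154.

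Thyroid hormone gave the clearest differences among the members. In control mice at 7 d, 6 of the 10 genes fell with hormone and none rose, by edgeR's quasi-likelihood test with Benjamini-Hochberg adjustment over all genes at 0.05. Of all 17079 genes tested, 22.9% fell and 43.2% changed in either direction, so a change as such was common in this comparison. In Jag antibody mice, 5 of the 10 fell and none rose, against 5.21% of all genes that fell and 9.5% that changed. These comparisons share no mice. The 5 genes called in Jag antibody mice (Mgll, Abhd5, G0s2, Plin2 and Cidec) were all among the 6 called in control mice, the sixth being Plin5. Over all genes this overlap was not counted, so it is not shown to be particular to the members. The median log2 fold change of the 10 members was -0.75 in control mice and -0.59 in Jag antibody mice, beside 0.04 and -0.04 over all genes.

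**Figure D2:**
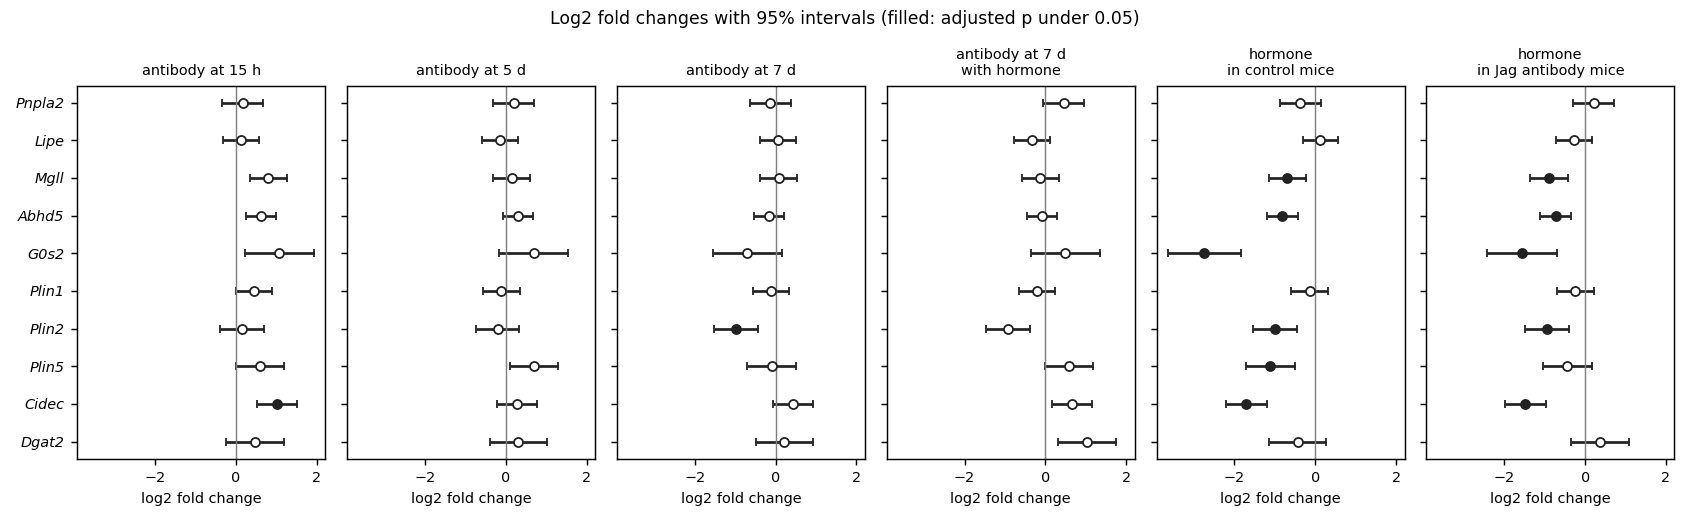
Log2 fold change of each of the 10 genes with its 95% interval in the 4 antibody comparisons and the 2 hormone comparisons, filled where the adjusted p was under 0.05. Filled points number 6 for hormone in control mice and 5 for hormone in Jag antibody mice, and all 11 lie below 0.

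Markers of cell types changed with hormone as well. In control mice the adipocyte sum was 13.4 ± 0.11 log2 CPM with hormone and 14.9 ± 0.38 without, and the groups did not overlap. Of its 6 genes 3 fell (Adipoq, Fabp4 and Cfd). The brown adipocyte sum was 12.6 ± 0.40 with hormone and 14.2 ± 0.59 without, also with no overlap, and 3 of its 6 genes fell. The fibroblast and progenitor sum was 11.6 ± 0.37 with hormone against 9.50 ± 0.37, and 4 of its 5 genes rose. The myeloid sum was 9.50 ± 0.43 against 7.27 ± 0.55, and 6 of its 10 genes rose, with none at 0 in any of these mice. The endothelial sum was 9.60 ± 0.21 against 8.77 ± 0.41, and 3 of its 5 genes rose and 1 fell. Under the Jag antibodies the adipocyte sum was 13.9 ± 0.24 log2 CPM with hormone and 14.8 ± 0.27 without, and the myeloid sum was 9.46 ± 0.79 against 7.79 ± 0.85. The fibroblast and progenitor sum was 10.3 ± 0.51 against 9.10 ± 0.36 there, and 3 of its 5 genes rose. Brown adipocyte markers summed to 12.6 ± 0.25 against 13.3 ± 0.91, with 1 of 6 lower, and endothelial markers to 9.52 ± 0.32 against 8.82 ± 0.44, with 1 of 5 higher. With the myeloid score as a covariate, an alternative chosen after seeing the data, 5 of the 6 calls in control mice stood, and Mgll had a log2 fold change of -0.28 (adjusted p = 0.239). The part of the adipocyte, brown adipocyte, fibroblast and endothelial markers in the members' changes was not tested.

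**Figure D3:**
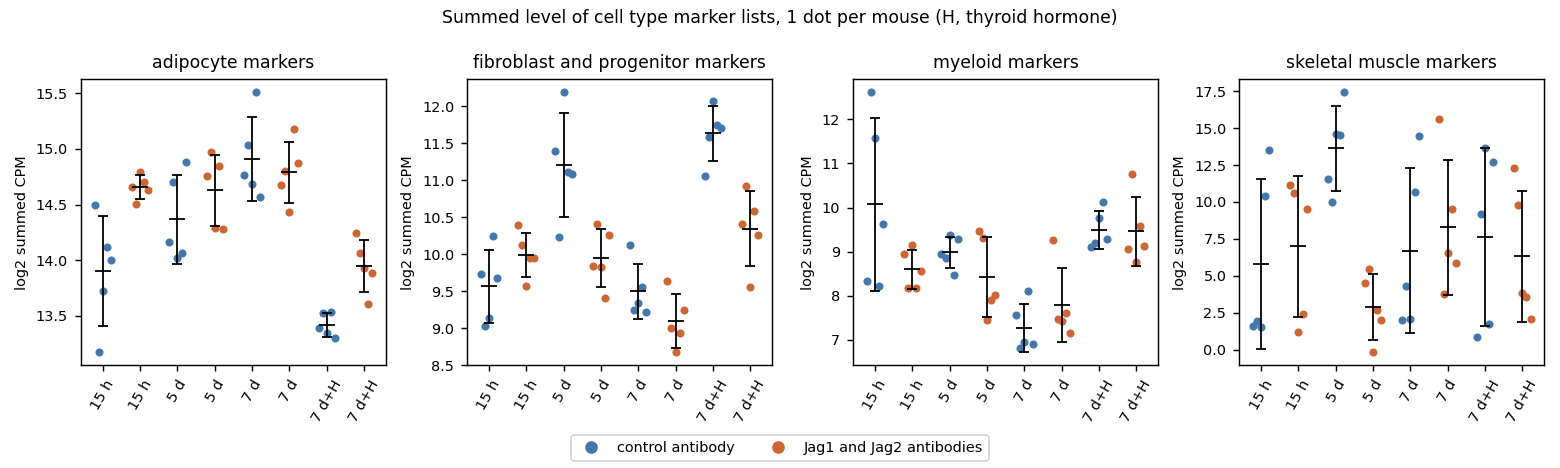
Summed level in log2 CPM of 4 lists of cell type markers, with 1 dot per mouse, the mean and SD of 5 mice, and H for thyroid hormone. Control mice with hormone lie between 13.3 and 13.5 for adipocyte markers, below all control mice at 7 d without it, which start at 14.6.

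Among the lipases, neither Pnpla2 nor Lipe was called with hormone under either antibody. Pnpla2 was at 10.85, 11.85, 11.78, 12.33 and 11.67 log2 CPM in control mice 1 to 5 without hormone and at 11.58, 11.28, 11.01, 11.74 and 11.28 with it. The groups overlapped, with control mouse 1 lowest of all 10. The 95% interval of the log2 fold change of Pnpla2 was -0.87 to 0.13 in control mice and -0.29 to 0.72 in Jag antibody mice, and that of Lipe was -0.31 to 0.57 and -0.71 to 0.17.

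Mgll, which splits the last fatty acid from glycerol, fell. The gene lies at chr6:88724412-88828360 on the plus strand (GRCm38, GENCODE M21, as for the other genes). Without hormone the control mice had 9.70, 10.20, 10.27, 9.75 and 10.10 log2 CPM of Mgll, and with hormone 9.19, 9.60, 9.14, 9.42 and 9.24. The groups did not overlap, as was so of 29.8% of all genes here. The fitted change of Mgll was -0.69 (log2, SE 0.23, adjusted p = 0.0135). Mgll in Jag antibody mice 6 to 10 was at 9.17, 10.17, 10.71, 9.78 and 10.20 log2 CPM without hormone and at 9.23, 9.17, 9.22, 9.18 and 9.18 with it. Mouse 6 without hormone was at or just under the level of the mice with hormone, and the other 4 lay above them. Its log2 fold change there was -0.90 (SE 0.23, adjusted p = 0.0108; -0.55 with the myeloid score as a covariate), and the 5 mice with hormone differed from each other by an SD of only 0.03.

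Both regulators of Pnpla2 fell, its activator and its inhibitor. Abhd5 (chr9:122351608-122381524, plus strand), the activator, was at 7.31, 7.53, 7.74, 7.96 and 7.61 log2 CPM in control mice without hormone and at 6.53, 7.36, 7.02, 6.43 and 6.59 with it. Only mouse 2 with hormone reached into the range without it. The fitted change of Abhd5 was -0.81 (log2, SE 0.18, adjusted p = 0.000729). Abhd5 in Jag antibody mice was at 7.38, 7.32, 7.52, 7.58 and 7.54 log2 CPM without hormone and at 6.98, 6.82, 6.72, 6.49 and 6.64 with it. These groups did not overlap, as was so of 12% of all genes, and the log2 fold change was -0.73 (SE 0.18, adjusted p = 0.0104).

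G0s2 (chr1:193272161-193273217, minus strand), the inhibitor, had the lowest log2 fold changes of the 10 members under both antibodies. Control mice had 8.16, 10.11, 9.83, 10.78 and 9.72 log2 CPM of G0s2 without hormone and 7.14, 6.51, 7.00, 8.15 and 6.46 with it. The groups did not overlap, but mouse 1 without hormone was only just above mouse 4 with it. G0s2 was 6.7-fold lower with hormone (log2 fold change -2.74, SE 0.44, adjusted p = 2.53e-05). The size depended on the fit, with a log2 fold change of -1.89 with length and GC offsets and -1.88 when the replicate block was added to them. G0s2 in Jag antibody mice was at 7.27, 9.67, 9.49, 9.44 and 9.29 log2 CPM without hormone and at 7.80, 7.41, 7.58, 8.13 and 7.34 with it. Mouse 6 without hormone was the lowest of all 10, and the other 4 without hormone were above every mouse with it. The log2 fold change there was -1.55 (SE 0.42, adjusted p = 0.0179), and it was -1.80 without mouse 6. Reads of Lamb3, which overlaps G0s2 on the opposite strand, were at most 7% of the G0s2 count in any library, and whether counting used the strand is not given in the sources used here.

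Of the droplet coat genes, Plin1 was not called with hormone. The control mice without hormone had a narrow range of Plin1, 9.89 to 10.03 log2 CPM, inside the range of 9.58 to 10.15 with hormone. Plin2 (chr4:86648386-86670060, minus strand) was at 11.17, 11.54, 10.53, 10.74 and 10.99 log2 CPM in control mice without hormone and at 10.39, 10.11, 9.59, 10.30 and 9.62 with it. The groups did not overlap, and the log2 fold change of Plin2 was -0.999 (SE 0.27, adjusted p = 0.00297). Jag antibody mice started from a lower level, with 8.97, 10.34, 9.97, 10.81 and 9.53 log2 CPM of Plin2 without hormone and 8.77, 9.29, 9.40, 9.46 and 8.39 with it. Only mouse 6 without hormone lay inside the range with hormone. The change of Plin2 was -0.94 there (log2, SE 0.27, adjusted p = 0.0215), which lost its call when only the compared groups were fitted (adjusted p = 0.0633) or when mouse 7 or 9 without hormone, or mouse 6 or 10 with hormone, was left out, where the highest adjusted p was 0.118.

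Plin5 (chr17:56111601-56117596, minus strand) fell in control mice. It was at 7.45, 8.46, 8.16, 8.72 and 8.22 log2 CPM without hormone and at 7.32, 7.06, 6.70, 7.56 and 6.92 with it. Mouse 4 with hormone was just above mouse 1 without it, and the rest were apart. The log2 fold change of Plin5 was -1.12 (SE 0.30, adjusted p = 0.00299), -0.70 with length and GC offsets and -0.77 with the myeloid score as a covariate. Plin5 was not called in Jag antibody mice, with a log2 fold change of -0.44 (95% interval -1.04 to 0.16). The difference between the antibodies in this change was 0.68 and was not called either (adjusted p = 0.469).

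Cidec (chr6:113424634-113435760, minus strand) fell under both antibodies with no overlap. Control mice had 9.44, 10.46, 10.51, 10.91 and 10.23 log2 CPM of Cidec without hormone and 8.43, 8.68, 8.54, 9.02 and 8.67 with it. Even control mouse 1, the lowest without hormone, was above all 5 mice with it. Cidec was 3.26-fold lower (log2 fold change -1.70, SE 0.25, adjusted p = 8.14e-06). Cidec in Jag antibody mice was at 10.86, 10.51, 10.61, 11.03 and 10.98 log2 CPM without hormone and at 9.76, 8.95, 9.41, 9.01 and 9.36 with it. There it was 2.79-fold lower (log2 fold change -1.48, SE 0.25, adjusted p = 0.000188). Cidec, G0s2 and Abhd5 kept their calls under every alternative run and without any 1 mouse in both hormone comparisons.

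Dgat2, at the synthesis end, was not called with hormone. Its log2 fold change was -0.43 in control mice (95% interval -1.14 to 0.28) and 0.37 in Jag antibody mice (95% interval -0.34 to 1.08). With the myeloid score as a covariate Dgat2 was higher with hormone in Jag antibody mice (0.93, adjusted p = 0.0205). With hormone the control mice had 10.78, 10.64, 10.40, 10.67 and 10.47 log2 CPM of Dgat2, a narrow range that overlapped the 10.55 to 11.70 without hormone. Dgat2 lies at chr7:99153658-99182719 on the minus strand.

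**Figure D4:**
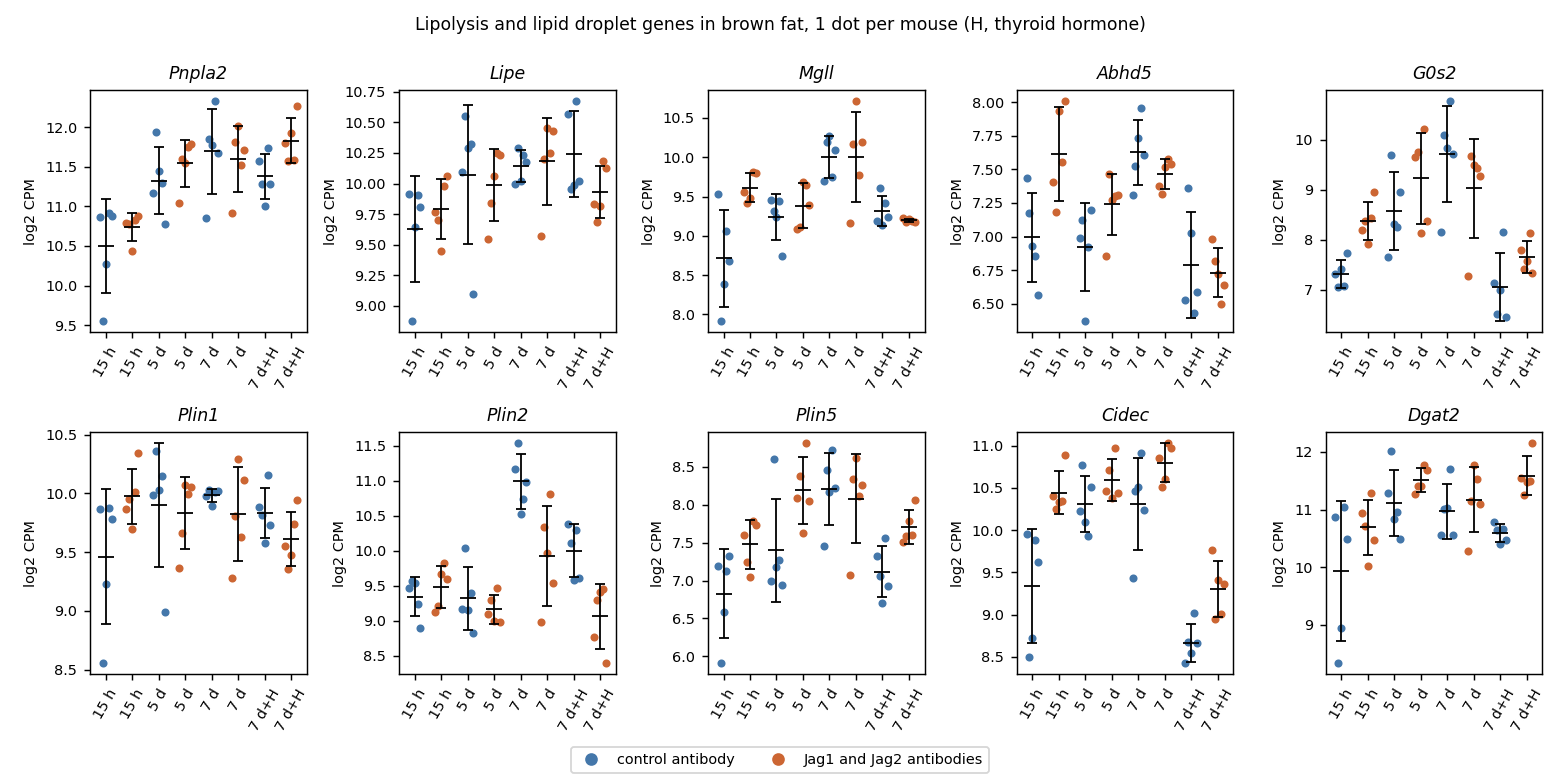
Level of each of the 10 genes in log2 CPM with 1 dot per mouse and the mean and SD of 5 mice, with H for thyroid hormone. Cidec in control mice with hormone lies at 8.43 to 9.02, below the 9.44 to 10.91 of control mice at 7 d without it.

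Other genes of the pathway were followed in 3 lists. Of 10 further lipolysis genes, 4 fell with hormone in control mice and none rose, beside 43.2% of all genes that changed and 22.9% that fell. The largest changes were those of Fabp4, a fatty acid carrier (log2 fold change -1.77), and of the carboxylesterases Ces1f (-1.30) and Ces1d (-1.11). Of these 10, 1 fell in Jag antibody mice, Ces1f (log2 fold change -1.04, adjusted p = 0.0258), beside 9.5% of all genes that changed. The shares of this list called, 40% and 10%, were near those of all genes. Fabp4 is also among the adipocyte markers, whose sum was lower with hormone.

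The synthesis list split. In control mice 3 of its 10 genes rose with hormone and 3 fell, 60% of the list beside 43.2% of all genes. The genes that rose were Lpin3 (log2 fold change 2.10) and Lpin2 (0.70), phosphatidate phosphatases, and Gpam (1.12), which starts glycerolipid synthesis in mitochondria. Those that fell were Agpat2 (-2.27), which adds the second acyl chain, Mogat1 (-1.64), a monoglyceride acyltransferase, and Dgat1 (-1.30), the other enzyme for the final step. Under the Jag antibodies Lpin3 rose (log2 fold change 2.10) and 4 genes fell, among them Gpat3 (-1.74), Agpat2 (-1.502) and Mogat1 (-1.47), which made 50% of the list beside 9.5% of all genes. Dgat1, named here because it shares its step with Dgat2, fell in both comparisons (-0.84 in Jag antibody mice), while Dgat2 was called in neither. The difference between Dgat1 and Dgat2 was not tested.

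Of 12 other droplet genes, 4 fell with hormone in control mice and 1 rose, 41.7% of the list and near the 43.2% of all genes. Cidea (log2 fold change -2.05), a relative of Cidec, Bscl2 (-1.69), which encodes the droplet assembly protein seipin, and Plin3 (-0.74) were the largest to fall, and Cavin1 (0.52), a caveolar protein, rose. Cidea is also one of the brown adipocyte markers. In Jag antibody mice Bscl2 (log2 fold change -1.03) and Hsd17b11 (-0.35) fell and none rose, 16.7% beside 9.5% of all genes.

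Whether hormone acted differently under the antibodies was tested as an interaction. None of the 10 members was called, by edgeR or by DESeq2, and over all genes edgeR called 0.00586%. None of the members had an unadjusted p under 0.05, beside 2103 of all 17079 genes. The lowest unadjusted p was 0.0506 for G0s2, whose fall was 1.19 smaller on the log2 scale in Jag antibody mice (95% interval -0.01 to 2.39, adjusted p = 0.406). The interval holds 0 and also differences as large as 2.39.

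The antibody comparisons called few members. At 15 h, 1 of the 10 was called, Cidec, which was higher in Jag antibody mice, beside 0.234% of all genes higher and 1.14% called in either direction. Control mice had 9.95, 8.50, 8.72, 9.89 and 9.63 log2 CPM of Cidec at 15 h, and Jag antibody mice 10.40, 10.25, 10.33, 10.34 and 10.89. The groups did not overlap, and control mice 2 and 3 were far below the others. The log2 fold change of Cidec was 1.01 (SE 0.24, adjusted p = 0.0399). Without control mice 2 and 3, an alternative chosen after seeing the data, it was 0.64 (adjusted p = 0.767), and leaving out either of them alone, or any 1 of the 5 Jag antibody mice, also ended the call (highest adjusted p 0.288). The call was also lost with no filter on low counts and when only the compared groups were fitted. It held in 5 of the 8 alternatives other than leaving out 1 mouse, among them the myeloid score as a covariate.

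G0s2 also showed no overlap at 15 h. It was at 7.32, 7.05, 7.42, 7.08 and 7.73 log2 CPM in control mice and at 8.20, 8.38, 7.91, 8.43 and 8.95 in Jag antibody mice. Control mice 2 and 3, at 7.05 and 7.42, did not stand apart from the other control mice for this gene. The difference was not called (log2 fold change 1.07, SE 0.42, adjusted p = 0.22), and 2 of 10 members without overlap compares with 2.48% of all genes. All 10 members had a log2 fold change above 0 at 15 h, with a median of 0.53 beside -0.04 over all genes. An unadjusted p under 0.05 was found for 4 members and for 2052 of all 17079 genes. The adipocyte sum was 13.9 ± 0.49 log2 CPM in control mice and 14.7 ± 0.11 in Jag antibody mice at 15 h, and the myeloid sum was 10.1 ± 1.96 against 8.60 ± 0.44. Without control mice 2 and 3, Pnpla2 (log2 fold change -0.13), Lipe (-0.06) and Dgat2 (-0.06) changed sign, and no member was called.

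At 5 d no member was called by edgeR or DESeq2, while edgeR called 8.02% of all genes. Of all 17079 genes, 3907 had an unadjusted p under 0.05, and 1 of the 10 members did. That member was Plin5, at 7.00, 8.60, 7.18, 7.27 and 6.95 log2 CPM in control mice and 8.09, 8.38, 7.63, 8.81 and 8.04 in Jag antibody mice. All Jag antibody mice were above 4 of the 5 control mice, and control mouse 2 lay among them. The log2 fold change of Plin5 was 0.69 (SE 0.30, adjusted p = 0.144). In the other lists, Aqp7, the glycerol channel of fat cells (log2 fold change 0.73), and Gpat4, an acyltransferase of glycerolipid synthesis (0.70), were higher in Jag antibody mice. Fitm1, a droplet formation gene known from skeletal muscle, was lower, at -2.09 ± 1.51 log2 CPM in Jag antibody mice against 5.06 ± 2.78 (adjusted p = 0.0206), beside the muscle sums of these groups, which did not overlap.

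At 7 d, where the control mice are the same as in the hormone comparison, 1 of the 10 members was called, Plin2, beside 2.5% of all genes in either direction and 1.29% lower. Control mice were at 10.53 to 11.54 log2 CPM of Plin2 and Jag antibody mice at 8.97 to 10.81. Mouse 9 of the Jag antibody group reached into the control range, and mouse 6 was the lowest. Plin2 was 1.97-fold lower in Jag antibody mice (log2 fold change -0.98, SE 0.27, adjusted p = 0.04). Leaving out mouse 6, which had the highest muscle sum, gave -0.80 (adjusted p = 0.121), and the call was lost with 7 of the 10 mice left out in turn. These were control mice 1, 2, 4 and 5 and Jag antibody mice 6, 8 and 10, with values from -1.24 to -0.80 over all 10, and it was also lost with no filter on low counts and when only the compared groups were fitted (highest adjusted p 0.192). Of the other droplet genes, Cideb was lower in Jag antibody mice (log2 fold change -1.56), at -0.32 ± 0.28 against 1.04 ± 0.62 log2 CPM, a low level.

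With hormone at 7 d, no member was called between the antibodies by edgeR, beside 1.14% of all genes. An unadjusted p under 0.05 was found for 3 of the 10 members and for 2026 of all 17079 genes. DESeq2 called 1 member (Plin2) and 452 genes in all. Plin2 was lower in every Jag antibody mouse than in any control mouse, at 8.39 to 9.46 against 9.59 to 10.39 log2 CPM. Its log2 fold change was -0.92 (SE 0.27, adjusted p = 0.0763). Dgat2 was at 11.55, 11.25, 11.47, 11.49 and 12.15 log2 CPM in Jag antibody mice with hormone, above all control mice with hormone, whose values were between 10.40 and 10.78. Its log2 fold change was 1.02 (SE 0.35, adjusted p = 0.169). Groups without overlap were found for these 2 of 10 members and for 6.59% of all genes. Ces1f of the lipolysis list was higher (log2 fold change 1.33, adjusted p = 0.02). Neither the change in the antibody difference from 15 h to 5 d nor that from 5 d to 7 d was called for any member. This held by edgeR, beside 0.0995% and 1.29% of all genes, and by DESeq2. In each, 2 members had an unadjusted p under 0.05, beside 2493 and 2844 of all 17079 genes. From 5 d to 7 d these members were G0s2 (-1.39, adjusted p = 0.211) and Plin2 (-0.78, adjusted p = 0.287).

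Over time in control mice, members were called at both steps. The steps share the 5 d group, and the first shares its 15 h group with the antibody comparison. From 15 h to 5 d, 4 of the 10 rose and none fell, beside 16.2% of all genes that rose and 36.4% that changed. The share of members called in either direction, 40%, was near that of all genes. The members called were Pnpla2 (log2 fold change 0.79, adjusted p = 0.0136), G0s2 (1.41, adjusted p = 0.0105), Cidec (0.88, adjusted p = 0.00614) and Dgat2 (0.93, adjusted p = 0.0359). Dgat2 was at 10.86, 8.33, 8.94, 11.05 and 10.48 log2 CPM in control mice at 15 h and at 11.28, 12.02, 10.83, 10.96 and 10.48 at 5 d. Mice 2 and 3 at 15 h were far below the rest and the groups overlapped. Leaving out either of them, or mouse 2 at 5 d, ended the call of Dgat2 (highest adjusted p 0.136), and without both no member was called. The log2 fold changes were then 0.55 for Pnpla2, 1.42 for G0s2, 0.58 for Cidec and 0.46 for Dgat2, and over all genes 2093 were called in place of 6214. No member was called either with length and GC offsets or when only the compared groups were fitted. The lowest log2 fold changes over the alternatives were 0.54 for G0s2, 0.34 for Pnpla2, 0.31 for Cidec and 0.31 for Dgat2. The myeloid sum was 8.47 to 9.37 log2 CPM at 5 d and reached 12.6 in mouse 2 at 15 h, and 8 of its 10 genes fell, 1 of them without control mice 2 and 3. Of the 5 fibroblast and progenitor markers 4 rose, and 2 were called without those mice.

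From 5 d to 7 d in control mice, Mgll, Abhd5 and Plin2 rose and no member fell, beside 4.71% of all genes that rose and 9.13% that changed. All 3 also fell with hormone in control mice, measured from this same 7 d group, so the rise and the fall are not independent. Means in control mice at 5 d and at 7 d with hormone were 9.24 and 9.32 log2 CPM for Mgll. They were 6.92 and 6.79 for Abhd5, and 9.32 and 10.0 for Plin2, and these groups were not tested against each other. Plin2 was at 9.17, 10.04, 9.16, 9.40 and 8.82 log2 CPM at 5 d, well below the 10.53 to 11.54 at 7 d. Its log2 fold change was 1.66 (SE 0.27, adjusted p = 0.000774), 3.16-fold higher, and the call held under every alternative run. The log2 fold change of Mgll was 0.76 (SE 0.23, adjusted p = 0.0318) and that of Abhd5 0.70 (SE 0.18, adjusted p = 0.0172), and none of the 3 genes' groups overlapped, as was so of 4.41% of all genes. Mgll and Abhd5 lost the call with the muscle score as a covariate, with no filter on low counts and when only the compared groups were fitted (highest adjusted p over the alternatives 0.131 for Mgll and 0.154 for Abhd5). For Mgll, leaving out mouse 3 or 5 at 5 d or mouse 2 or 3 at 7 d ended the call, and for Abhd5 mouse 3 at 5 d or mouse 4 at 7 d did. The muscle sum was 9.99 to 17.4 log2 CPM at 5 d and 2.00 to 14.5 at 7 d, and all 5 fibroblast and progenitor markers fell between these times. The myeloid sum was 8.98 ± 0.36 at 5 d and 7.27 ± 0.55 at 7 d with no overlap, and 3 of its 10 genes fell. The brown adipocyte sum was 12.7 ± 0.66 and 14.2 ± 0.59, and 2 of its 6 genes rose. The part of these lists in the members' changes was tested only as far as the muscle and myeloid scores go.

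In Jag antibody mice, Pnpla2 rose from 15 h to 5 d and no other member was called, beside 8.22% of all genes that rose and 14.5% that changed. It was at 10.79, 10.77, 10.44, 10.83 and 10.88 log2 CPM at 15 h and at 11.04, 11.60, 11.55, 11.74 and 11.78 at 5 d. The groups did not overlap (13.6% of all genes), and the log2 fold change was 0.82 (SE 0.25, adjusted p = 0.0259). Leaving out mouse 8 at 15 h or mouse 7, 9 or 10 at 5 d ended the call, with a highest adjusted p of 0.0786, and so did length and GC offsets and the myeloid score as a covariate (lowest log2 fold change over the alternatives 0.42). With the myeloid score the members called were Mgll (-0.69, adjusted p = 0.0162) and Plin1 (-0.58, adjusted p = 0.0453), both lower at 5 d. In this step 4 of the 10 myeloid and 3 of the 5 lymphocyte markers fell. From 5 d to 7 d no member was called by edgeR, beside 3.29% of all genes. An unadjusted p under 0.05 was found for 2 members, Plin2 and Mgll, and for 3078 of all 17079 genes. DESeq2 called both of these members and 1269 genes in all. Plin2 was at 9.10, 9.29, 8.99, 9.46 and 8.97 log2 CPM at 5 d, below 4 of the 5 mice at 7 d. Its log2 fold change was 0.88 (SE 0.27, adjusted p = 0.0551), and without mouse 6 at 7 d it was 1.05 (adjusted p = 0.0197).

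Of the other pathway genes, the synthesis list had the most calls over time in control mice, with 5 of 10 higher and 2 lower at 5 d than at 15 h, beside 36.4% of all genes called. Agpat2 (log2 fold change 1.73), Mogat1 (1.51) and Dgat1 (1.14) led those higher, and Lpin2 (-1.10) and Lpin3 (-0.69) were lower. The lipolysis list had 3 higher, led by Ces1f (log2 fold change 1.51), and 1 lower, Hilpda, another inhibitor of Pnpla2 (-1.12), a share near that of all genes. These counts rest on control mice 2 and 3 at 15 h. Without them the synthesis list had 2 called, Dgat1 (log2 fold change 0.83) and Mogat1 (1.15), the lipolysis list had 1, Ces1f (1.13), and 11.9% of all genes were called. Agpat2 then had a log2 fold change of 1.29 (adjusted p = 0.0612), Lpin2 one of -0.46, Hilpda one of -0.11 and Lpin3 one of 0.07, of the opposite sign. From 5 d to 7 d Agpat2 (log2 fold change 1.58), Mogat1 (1.42) and Fabp4 (1.05) were higher in control mice, beside 9.13% of all genes called. In Jag antibody mice Mogat1 was higher at 7 d than at 5 d (log2 fold change 1.504), as was Pnpla3, a relative of Pnpla2 (1.54), beside 3.29% of all genes called.

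The order of the 8 groups differed between genes. Lipe and Plin1 were called in none of the 13 comparisons, and no neighbouring pair of groups in their order was apart by more than the larger SD of the pair. The means of Lipe ran from 9.63 ± 0.44 log2 CPM in control mice at 15 h to 10.2 ± 0.35 in control mice with hormone. Plin2 stood highest in control mice at 7 d, at 10.99 ± 0.39 log2 CPM, a gap of 0.99 above the next group and larger than either SD, and the other 7 groups followed with no gap beyond the SD. Cidec was lowest in control mice with hormone (8.67 ± 0.22 log2 CPM), then Jag antibody mice with hormone (9.30 ± 0.33) and control mice at 15 h (9.34 ± 0.68). A gap of 0.97 separated these from the other 5 groups, and a gap of 0.63 separated the groups with hormone from each other, both larger than the SDs beside them. Mgll had 1 such gap, of 0.39, between the groups at 7 d without hormone and the rest, and G0s2 had 2, of 0.72 and 0.33, on either side of Jag antibody mice with hormone. Pnpla2 had 1 gap, of 0.58, between the 2 groups at 15 h and all later groups. Each gap was set only against the SDs of the 2 groups next to it. The SD of Mgll in Jag antibody mice at 7 d, 0.57, and that of Pnpla2 in control mice at 15 h, 0.59, were larger than the gaps of these genes. Abhd5, Plin5 and Dgat2 had none.

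Across the 40 mice the members did not form a single block. Pearson's r over the 45 pairs ran from -0.09 to 0.83 with a median of 0.51, and from -0.19 to 0.92 with a median of 0.37 after the group means were removed. The mice share group, time and tissue makeup, so these values describe the libraries and carry no test. Lipe and Plin1 were the closest pair by both measures (0.83, and 0.92 within groups). Pnpla2 came next with Dgat2 over the 40 mice (0.83, and 0.82 within groups) and with Plin5 within groups (0.87, and 0.78 over the 40 mice). Abhd5 was near 0 with Pnpla2 (-0.04 and 0.01), the lipase it activates, while G0s2, the inhibitor, was at 0.45 and 0.52 with Pnpla2. The highest value of Abhd5 over the 40 mice was with Cidec (0.63, and 0.32 within groups). Plin2 was near 0 with Cidec (0.05 and -0.10).

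**Figure D5:**
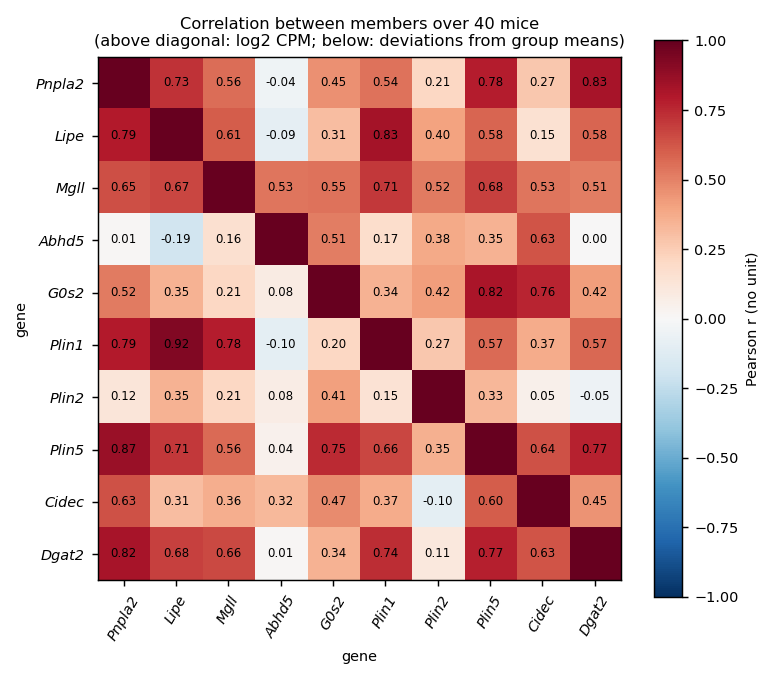
Pearson's r between each pair of the 10 genes over 40 mice, from log2 CPM above the diagonal and from deviations from the group means below it. Abhd5 with Cidec is at 0.63 above and 0.32 below, and Lipe with Plin1 reaches 0.83 above and 0.92 below.

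Among 12117 other genes with a mean of at least 1 log2 CPM, the genes whose level was most like the mean of the 10 members over the 40 mice were Agpat3 (r = 0.95), Uck1 (0.94), Clstn3 (0.92), Mccc2 (0.91) and Dhrs4 (0.91). Agpat3 is an acyltransferase of glycerophospholipid synthesis, and Mccc2 is a subunit of an enzyme of leucine breakdown. Plin2 was most like Nsdhl (0.86), a cholesterol synthesis enzyme, Adap1 (0.85) and Gm3571 (0.85). G0s2 was most like B3gat3 (0.93), Bscl2 (0.90) and Wdr34 (0.90). Dgat2 was most like Marveld1 (0.90), Rab3ip (0.90) and Aldh4a1 (0.90).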

How the data were processed

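The authors deposited raw counts per Ensembl gene, whole numbers with 1 column per mouse. Per the submitters' processing notes, GSNAP and limma were used; the genome build, the counting program and whether it used the strand are not given in the sources used here. Columns were matched to mice through the labels, and groups come from the labels, where mice 1 to 5 are controls and mice 6 to 10 had the Jag antibodies. Symbols were found for 52403 of the 52636 genes, and coordinates and exonic lengths are from GENCODE M21 on GRCm38. The labels do not say how mice were housed or processed together.

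Tests used edgeR 4.0.16 (R 4.3.3): filterByExpr over the 8 groups (17079 genes left), TMM scaling, robust dispersions and the quasi-likelihood F test in 1 model of 40 libraries with 32 residual degrees of freedom, for 13 comparisons. A gene with a Benjamini-Hochberg adjusted p under 0.05 over all genes tested is called. Standard errors are those implied by the F statistic. Levels are log2 CPM with a prior count of 2. Totals of 12217623 to 36511893 counts put the members at 1354 counts or more in every library, where spread between mice exceeds counting error. The methods were tested on counts simulated for hormone in control mice. Of 100 genes given a log2 change of 1 in size, 22% were called, and of 100 given 2, 93% were, with 4 false calls. The simulation used the spread typical of a gene's level, not each member's own, so it does not give the power for a member. A gene that is not called is not shown to be unchanged. No pair of mice of a group was alike within sampling noise.

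Members, gene lists and marker lists were chosen with earlier results of these data known. All members are named; of the other lists, at most 3 called genes per direction are named by size of change. Alternatives in edgeR were RLE size factors, no filter, muscle or myeloid score covariates, length and GC offsets, and a replicate block. Others were fitting only the compared groups and leaving mice out. DESeq2 1.42.0 was also run as a whole, with its own size factors, dispersions and test. Adding the myeloid score and leaving out control mice 2 and 3 at 15 h were chosen after seeing the data. The deposited FPKM values were not used.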

Additional observations from a re-analysis of the deposited data

Results flagged for a closer look

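Within groups of 5, a mouse was picked out when its gap to the nearest other mouse was more than 0.71 of the group's range. This held in 7 of 80 groups of 5 (10 genes in 8 groups), where chance gives about 4. Mouse 6 of the Jag antibody group at 7 d was picked out for 2 genes, with 7.27 log2 CPM of G0s2 (the others 9.29 to 9.67) and 9.57 log2 CPM of Lipe (the others 10.20 to 10.45). This mouse had a skeletal muscle sum of 15.6 log2 CPM and a myeloid sum of 9.27, both the highest of its group. Control mouse 2 at 15 h had 8.87 log2 CPM of Lipe against 9.65 to 9.91 in the other 4, with a myeloid sum of 12.6. Control mouse 5 at 5 d had 8.99 log2 CPM of Plin1 against 9.98 to 10.36, and control mouse 2 at 5 d had 8.60 of Plin5 against 6.95 to 7.27. At 15 h, Jag antibody mouse 10 was high for Cidec at 10.89 log2 CPM (the others 10.25 to 10.40), and mouse 8 was low for Pnpla2 at 10.44 (the others 10.77 to 10.88).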

How the results depend on the processing

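Of 112 counts of called members under alternatives other than leaving out 1 mouse, 79 were within 1.5 times the count given above and 33 moved. The cause of the moves was not tested. With hormone, the 6 members in control mice and 5 in Jag antibody mice stayed within 1.5 times under every alternative, though the myeloid score added Dgat2, higher, in Jag antibody mice. For the antibody at 15 h, 0 members were called with no low-count filter, 0 when only the compared groups were fitted, 0 without control mice 2 and 3, 2 with length and GC offsets and 3 by DESeq2. At 5 d the offsets gave 2 (G0s2 and Plin5). At 7 d the missing filter and the fit of only the compared groups gave 0 each. At 7 d with hormone, the muscle score gave 1, the myeloid score 1, DESeq2 1 and the compared groups alone 2. For control mice from 15 h to 5 d, the myeloid score gave 1, and the offsets, the replicate block with offsets, the compared groups alone and leaving out mice 2 and 3 gave 0 each. From 5 d to 7 d, no filter, the muscle score and the compared groups alone gave 1 each (Plin2), and the replicate block with offsets gave 5. For Jag antibody mice from 15 h to 5 d, the myeloid score gave 2 other members, both lower (Mgll and Plin1), in place of Pnpla2. Without that score Mgll (log2 fold change -0.22) and Plin1 (-0.13) were already below 0, and Pnpla2 stayed above 0 under every alternative. The offsets gave 0, the block with offsets 0 and the compared groups alone 3. From 5 d to 7 d, RLE, the muscle score, the offsets, the replicate block and the block with offsets gave 1 each, and the myeloid score and DESeq2 gave 2 each. The antibody difference between 5 d and 7 d gave 1 with the block and offsets (Plin2).

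Leaving out 1 mouse gave 0 to 3 members for the antibody at 15 h, 0 to 1 at 5 d, 0 to 1 at 7 d, 0 to 0 at 7 d with hormone and in the 3 interactions, 6 to 6 and 4 to 5 with hormone in control and Jag antibody mice, 3 to 7 and 1 to 5 for the time steps of control mice, and 0 to 3 and 0 to 2 for those of Jag antibody mice.

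Mice share a title number across times but are different animals. Mean correlations of same-numbered mice were 0.0819 to 0.195 over 6 pairs of groups, each with at least 1 of 5 pairs at or under 0.1, and 1 or 2 of 5 mice matched their own number best. The replicate block left 6 members called with hormone in control mice and 5 in Jag antibody mice, and the antibody comparisons share no numbers.

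Counts over all genes moved more. The lowest and highest over the alternatives were 0 and 537 for the antibody at 15 h (194 as reported), 89 with the muscle score and 1996 at 5 d (1369), 53 and 859 at 7 d (427), and 117 and 694 at 7 d with hormone (194). They were 6523 and 7899 for hormone in control mice (7378), 990 and 2782 in Jag antibody mice (1622), 0 and 7146 for control mice from 15 h to 5 d (6214), 161 and 2265 from 5 d to 7 d (1559), 1563 and 3550 (2470) and 155 and 1269 (562) for the same steps in Jag antibody mice. For the interactions they were 0 and 12 (1) with hormone, 0 and 500 (17) from 15 h to 5 d, and 0 and 975 (220) from 5 d to 7 d.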
